A study of Mus musculus with 9 samples.

Results

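The genes described here are 10 epithelial and mesenchymal markers of a mouse lung tumour line and its subclones: the simple-epithelial keratins Krt8 and Krt18, vimentin (Vim), the cadherins Cdh1 and Cdh2, and the transcription factors Zeb1, Zeb2, Snai1, Snai2 and Twist1. They were taken by symbol from a given list, and all 10 had a row among the 15768 gene symbols of the deposited expression table. RNA was sequenced from SCC2 and SCC1, each a clone grown by limiting dilution from LLC1, and from LLC1 itself, a line from a mouse Lewis lung carcinoma. Each line had 3 libraries. All 3 lines carry the labels wild type, untreated, tumor cells and lung, and all were grown in DMEM with 10% fetal bovine serum. The subclones had been passaged 5 to 8 times, and since each is 1 clone, a difference between a subclone and LLC1 is a difference of that clone. The labels do not state whether replicate libraries of a line had their own cultures, and every p-value here therefore measures sample-to-sample spread that could be technical.

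Epithelial cells build their cytoplasmic filaments from keratin pairs, in simple epithelia Krt8 with Krt18, while mesenchymal cells build them from vimentin. In an epithelial-mesenchymal transition (EMT), cells lose the junction protein E-cadherin (Cdh1), often gain N-cadherin (Cdh2), and change from keratin to vimentin filaments. The zinc-finger factors of the Snai and Zeb families and the basic helix-loop-helix factor Twist1 are known to drive this change, and the Snai and Zeb proteins repress Cdh1 by binding E-box sequences in its promoter.

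The values were FPKM, that is fragments of a gene scaled by its length and by all fragments of the library, and whole fragments worked back from them totalled 17094808 to 19398657 per library. Of the genes that mark the labelled lung tissue, Sftpc, Nkx2-1 and Foxj1 were under 1 FPKM in every library, and the 4 lung epithelium markers of the table summed to 1.09 to 1.22 FPKM in SCC2, 0.356 to 0.877 in SCC1 and 0.901 to 1.02 in LLC1. Most of each sum was the fourth marker, Ager, which averaged 1.13 FPKM in SCC2, 0.551 in SCC1 and 0.892 in LLC1. The 5 endothelial markers of the table summed to at most 0.0960 FPKM, and Msln, the mesothelium marker of the table, to at most 0.133 FPKM. The 6 fibroblast markers summed to 692 to 714 FPKM in SCC2, 258 to 268 in SCC1 and 572 to 598 in LLC1. Nearly all of this was the collagen gene Col3a1. Pdgfra averaged 3.04, 3.35 and 5.18 FPKM and Dcn 2.10, 2.34 and 3.02 FPKM in SCC2, SCC1 and LLC1. In the same order, Lum averaged 0.994, 0.0865 and 0.725 FPKM, Pdgfrb 0.145, 0.397 and 0.714, and Fap 0, 0 and 0.0136. Of 9 leukocyte markers, the 4 with a row (Cd14, Cd68, Ly6g and Csf1r) summed to 18.5 to 19.0 FPKM in SCC2, 27.2 to 31.1 in SCC1 and 15.5 to 16.9 in LLC1, and of these Csf1r stayed under 1 FPKM. The other 5 (Ptprc, Adgre1, Itgam, Cd3e and Nkg7) were not analysed here. The part of these fibroblast and leukocyte marker levels in the results below was not tested, and in bulk libraries fewer cells of a type and less RNA per cell cannot be told apart.

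The keratin pair and vimentin carry the main contrast of levels, so the 250 bases before their start sites are shown, read 5′ to 3′ from RefSeq (build GRCm38.p6). Krt8 lies on the minus strand and its stretch is chr15:102004343-102004592. Krt18 lies on the plus strand with chr15:102027966-102028215, and Vim on the plus strand with chr2:13574061-13574310. Capitals mark the E-box CAGGTG or its reverse complement, a sequence that Snai and Zeb proteins bind.
Krt8: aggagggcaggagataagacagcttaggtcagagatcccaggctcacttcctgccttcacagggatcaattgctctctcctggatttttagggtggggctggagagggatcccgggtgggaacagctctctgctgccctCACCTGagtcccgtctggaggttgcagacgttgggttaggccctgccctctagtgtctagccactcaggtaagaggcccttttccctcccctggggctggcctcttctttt
Krt18: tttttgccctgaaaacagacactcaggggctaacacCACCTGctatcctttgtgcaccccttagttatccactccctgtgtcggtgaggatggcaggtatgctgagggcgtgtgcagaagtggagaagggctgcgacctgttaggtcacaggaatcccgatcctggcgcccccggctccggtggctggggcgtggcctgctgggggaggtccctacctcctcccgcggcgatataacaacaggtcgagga
Vim: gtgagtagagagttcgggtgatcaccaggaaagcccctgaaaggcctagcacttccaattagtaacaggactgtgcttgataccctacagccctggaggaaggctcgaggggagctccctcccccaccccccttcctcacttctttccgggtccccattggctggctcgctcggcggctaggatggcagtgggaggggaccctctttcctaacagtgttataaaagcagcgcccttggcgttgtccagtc
Windows of 300 bases, from 250 before to 50 after the start, were searched on both strands for CAGGTG, for the general E-box CANNTG that includes it, for TATAAA and for GGGCGG. The first of these, CAGGTG, occurred in the windows of Krt8, Krt18 and Snai1, at -111, -214 and -126 from the start, and in none of those of Vim, Twist1 or Zeb2. Of all 32851 windows of this kind, 20.2% held CAGGTG and 72.3% held CANNTG, which was found in Krt8, Krt18 and Snai1 too. TATAAA, in 13.6% of all windows, was found in those of Krt8, Vim and Twist1. GGGCGG, in 35.7% of all, was found in those of Twist1 and Zeb2. These matches describe the letters only. Cdh1, Cdh2, Zeb1 and Snai2 are named without a sequence.

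Of the 10 genes, 9 passed the filter for testing, which asked for 1 FPKM or more in 3 or more of the 9 libraries, and all 9 were above 1 FPKM in every library. A gene is said to have risen or fallen where its limma p, adjusted over all 10519 genes tested, was under 0.05. In SCC2 against LLC1, 7 of the 9 were called, with Vim, Cdh2 and Snai2 higher and Krt8, Krt18, Zeb1 and Snai1 lower. Of all genes tested in that comparison 67.6% were called, 34.7% higher and 32.9% lower. In SCC1 against LLC1, 7 were called, with Krt8, Krt18 and Vim higher and Zeb1, Snai1, Snai2 and Twist1 lower, while of all genes 70.1% were called, 39.2% higher and 30.9% lower. In SCC2 against SCC1, 6 were called, with Cdh2, Snai2 and Twist1 higher and Krt8, Krt18 and Zeb1 lower, while of all genes 76.3% were called, 37.0% higher and 39.4% lower. The share of these genes that was called was thus close to that of all genes in each comparison.

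The libraries of SCC2 and LLC1 did not overlap for 8 of the 9 genes, beside 70.7% of all genes tested. They did not overlap for 9 genes between SCC1 and LLC1, beside 72.3% of all, and for 6 genes between SCC2 and SCC1, beside 77.9% of all. The median log2 change of the 9 genes was -0.054 in SCC2 against LLC1, -0.072 in SCC1 against LLC1 and 0.019 in SCC2 against SCC1, beside 0.0075, 0.033 and -0.0029 over all genes. Log2 changes are of FPKM + 1, which understates the change of genes near 1 FPKM. The comparisons of SCC2 and of SCC1 with LLC1 share the LLC1 libraries.

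**Figure D1:**
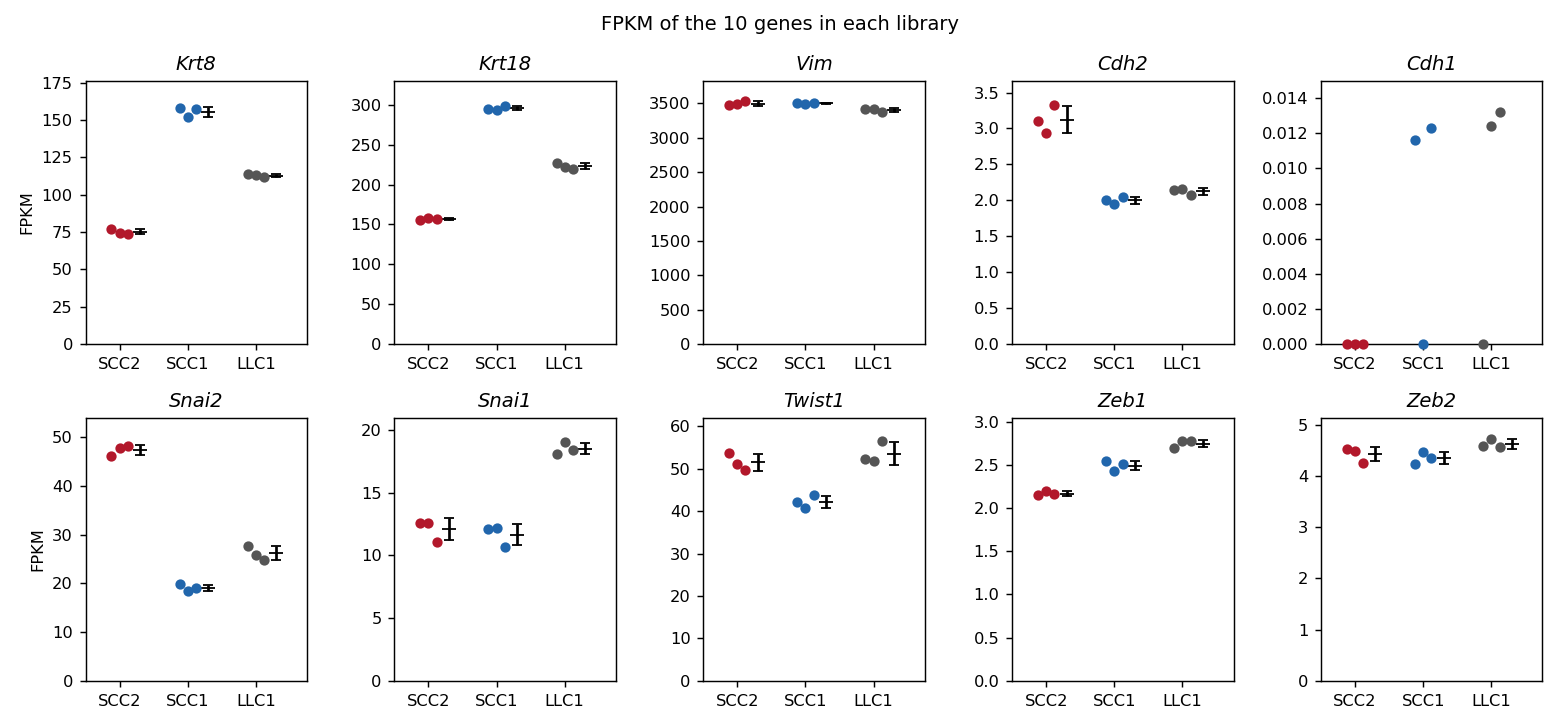
FPKM (vertical axes, each from 0) of the 10 genes in the 3 libraries of SCC2, SCC1 and LLC1; dots are libraries and black marks the mean ± SD of 3 libraries, left out for Cdh1, whose dots stand for 0 or 1 fragment. Krt8 and Krt18 were lowest in SCC2 and highest in SCC1, Snai2 and Cdh2 highest in SCC2, and Vim nearly level.

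Krt8 and Krt18 changed in opposite directions in the subclones. Krt8, the type II keratin of simple epithelia, had 77.2, 74.7 and 73.9 FPKM in SCC2, 158, 152 and 157 FPKM in SCC1, and 114, 113 and 112 FPKM in LLC1. All SCC2 libraries lay below all LLC1 libraries, and all SCC1 libraries above them. The mean fell to 75.3 ± 1.74 FPKM in SCC2, against 113 ± 1.14 FPKM in LLC1 (SD, n = 3 each; log2 change -0.58, SE 0.022, limma adjusted p = 1.23e-09). It rose to 155 ± 3.26 FPKM in SCC1, a log2 change of 0.46 against LLC1 (SE 0.022, limma adjusted p = 6.05e-09). Between the subclones Krt8 was lower in SCC2 by a log2 change of -1.04 (95% interval -1.08 to -0.99, limma adjusted p = 4.80e-12), a size that 3.05% of all tested genes reached or passed in that comparison.

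Krt18, the type I partner of Krt8, had 155, 158 and 157 FPKM in SCC2, 295, 293 and 298 FPKM in SCC1, and 227, 222 and 220 FPKM in LLC1. Its libraries were ordered as those of Krt8, with no overlap between any of the lines. The mean was 157 ± 1.53 FPKM in SCC2 and 223 ± 3.60 FPKM in LLC1, a log2 change of -0.51 (SE 0.017, limma adjusted p = 4.59e-10). It was 295 ± 2.60 FPKM in SCC1, a log2 change of 0.40 against LLC1 (SE 0.017, limma adjusted p = 2.29e-09). SCC2 was lower than SCC1 by a log2 change of -0.91 (95% interval -0.95 to -0.87, limma adjusted p = 1.89e-12). The annotation also holds a processed pseudogene, Krt8-ps, and reads of Krt8 that match it equally well would be uncertain.

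The balance of the keratin pair itself moved little. Krt18 FPKM over Krt8 FPKM averaged 2.08 ± 0.0665 in SCC2, 1.90 ± 0.0320 in SCC1 and 1.98 ± 0.0151 in LLC1 (SD, n = 3 each). The SCC2 libraries were the highest and the SCC1 libraries the lowest, without overlap. Each of the 3 differences had a two-sided exact permutation p of 0.10, the smallest that 3 against 3 libraries allow, and 0.1125 after Benjamini-Hochberg adjustment over 9 such tests.

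Vim, the filament protein of mesenchymal cells, was among the most abundant transcripts of all lines, at rank 2 of all symbols by mean FPKM in SCC2, rank 3 in SCC1 and rank 2 in LLC1. It had 3470, 3492 and 3534 FPKM in SCC2, 3512, 3495 and 3505 FPKM in SCC1, and 3414, 3423 and 3371 FPKM in LLC1. The libraries of both subclones lay above those of LLC1 by a small amount and overlapped each other. The mean was 2.83% higher in SCC2 than in LLC1 (log2 change 0.040, limma adjusted p = 0.00960) and 2.98% higher in SCC1 than in LLC1 (log2 change 0.042, limma adjusted p = 0.00688). In SCC2 against SCC1 the log2 change was -0.0022 with a 95% interval of -0.028 to 0.024 (limma adjusted p = 0.873). The calls against LLC1 were lost without limma's trend and robust options (adjusted p = 0.129 for SCC2 and 0.110 for SCC1). With median-of-ratios scaling that of SCC1 was lost (adjusted p = 0.0999), and under quantile normalization its log2 change was -0.29, while that of SCC2 was 0 and not called.

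With Vim nearly level, its ratio to Krt8 followed the keratin. Vim FPKM over Krt8 FPKM was 44.9, 46.8 and 47.8 in SCC2, 22.2, 23.0 and 22.4 in SCC1, and 30.0, 30.3 and 30.2 in LLC1. The SCC2 libraries were all above and the SCC1 libraries all below those of LLC1. The difference in log2 ratio was 0.62 for SCC2 against LLC1, -0.42 for SCC1 against LLC1 and 1.04 for SCC2 against SCC1 (two-sided exact permutation p = 0.10 each, the smallest possible, adjusted 0.1125).

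**Figure D2:**
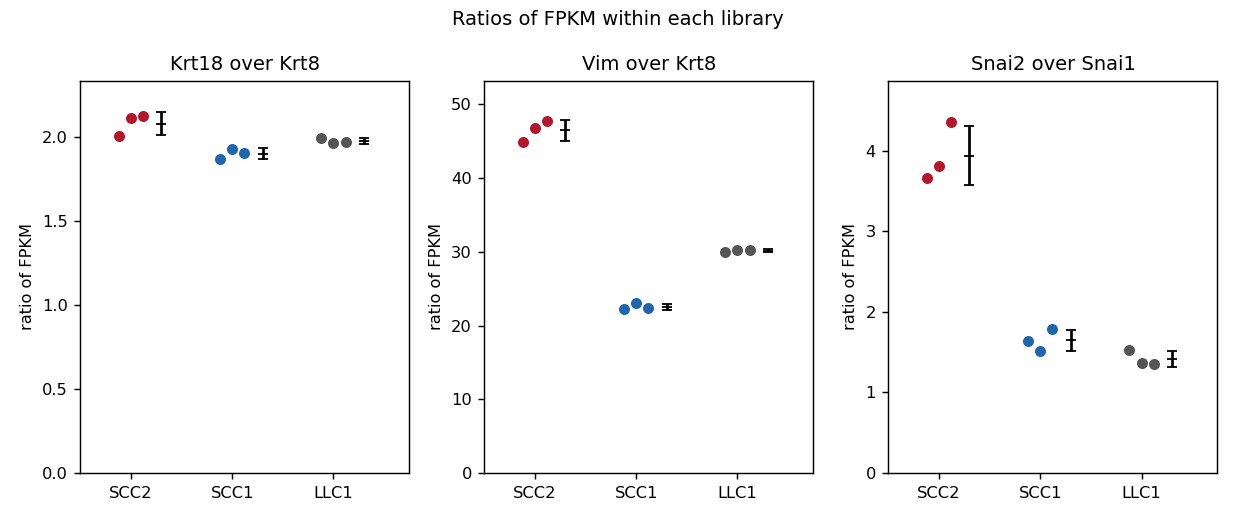
Ratios of FPKM (vertical axes, from 0) of Krt18 over Krt8, Vim over Krt8 and Snai2 over Snai1 in each library of SCC2, SCC1 and LLC1; dots are libraries and black marks the mean ± SD of 3 libraries. Vim over Krt8 averaged 46.5 in SCC2, 22.5 in SCC1 and 30.2 in LLC1.

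E-cadherin transcripts were at the limit of detection in all lines. Cdh1 had no fragment in any SCC2 library, 1, 0 and 1 fragments in SCC1, and 0, 1 and 1 fragments in LLC1. These sums are 0, 2 and 2 fragments, with exact 95% Poisson intervals of 0 to 3.69 in SCC2 and 0.242 to 7.22 in SCC1 and in LLC1, which cover counting error only. A floor of 3 fragments per library equals 0.0349 to 0.0396 FPKM for this gene, so a difference between the lines was not detectable at this depth and Cdh1 was not tested.

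Cdh2, or N-cadherin, the cadherin of mesenchymal and neural cells, was low in all lines and highest in SCC2. It had 3.11, 2.94 and 3.32 FPKM in SCC2, 2.00, 1.95 and 2.05 FPKM in SCC1, and 2.14, 2.16 and 2.08 FPKM in LLC1. Every SCC2 library was above every other library. The log2 change was 0.40 in SCC2 against LLC1 (SE 0.046, limma adjusted p = 1.25e-05) and 0.46 in SCC2 against SCC1 (SE 0.046, limma adjusted p = 2.28e-06). In SCC1 against LLC1 it was -0.059 with a 95% interval of -0.16 to 0.042 (limma adjusted p = 0.272), although all SCC1 libraries lay below all LLC1 libraries. On the worked-back fragments, 354 to 610 per library, the log2 changes without a pseudocount were 0.55, 0.64 and -0.089 in the same order (limma-voom).

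Among Snai1, Snai2, Twist1, Zeb1 and Zeb2, Snai2 had the largest change in SCC2 against either other line. Snai2, or Slug, had 46.2, 47.8 and 48.3 FPKM in SCC2, 19.8, 18.4 and 19.0 FPKM in SCC1, and 27.7, 25.8 and 24.9 FPKM in LLC1. The SCC2 libraries were all above and the SCC1 libraries all below those of LLC1, the reverse of the keratins. The mean was 47.4 ± 1.07 FPKM in SCC2, against 26.1 ± 1.44 FPKM in LLC1 (log2 change 0.84, SE 0.039, limma adjusted p = 6.27e-09). It was 19.1 ± 0.682 FPKM in SCC1, a log2 change of -0.43 against LLC1 (SE 0.039, limma adjusted p = 1.24e-06). SCC2 exceeded SCC1 by a log2 change of 1.27 (95% interval 1.19 to 1.36, limma adjusted p = 7.61e-11), and 2.02% of all tested genes changed at least as much in that comparison.

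Snai1, or Snail, the close relative of Snai2, was lower in both subclones. It had 12.6, 12.6 and 11.1 FPKM in SCC2, 12.1, 12.2 and 10.7 FPKM in SCC1, and 18.1, 19.0 and 18.4 FPKM in LLC1. The libraries of the subclones overlapped each other and lay below all LLC1 libraries. The log2 change was -0.58 in SCC2 against LLC1 (SE 0.055, limma adjusted p = 2.63e-06) and -0.63 in SCC1 against LLC1 (SE 0.055, limma adjusted p = 1.10e-06). Between SCC2 and SCC1 it was 0.051 with a 95% interval of -0.070 to 0.17 (limma adjusted p = 0.416).

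The ratio of Snai2 to Snai1, chosen after their values were seen, averaged 3.94 ± 0.367 in SCC2, 1.64 ± 0.135 in SCC1 and 1.41 ± 0.101 in LLC1 (SD, n = 3 each). The SCC2 libraries were above all others, while those of SCC1 and LLC1 overlapped. The two-sided exact permutation p was 0.10, the smallest possible, for SCC2 against either line and 0.20 for SCC1 against LLC1.

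Twist1, a basic helix-loop-helix factor, was lower in SCC1. It had 53.7, 51.1 and 49.7 FPKM in SCC2, 42.1, 40.8 and 43.7 FPKM in SCC1, and 52.3, 51.8 and 56.6 FPKM in LLC1. The SCC1 libraries lay below all others, and those of SCC2 and LLC1 overlapped. The log2 change was -0.34 in SCC1 against LLC1 (SE 0.039, limma adjusted p = 1.15e-05) and 0.28 in SCC2 against SCC1 (SE 0.039, limma adjusted p = 3.65e-05). In SCC2 against LLC1 it was -0.054 with a 95% interval of -0.14 to 0.031 (limma adjusted p = 0.235).

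The Zeb factors, zinc-finger repressors with homeodomains, had the smallest log2 changes of the 5 factors in SCC1 against LLC1. Zeb1 had 2.15, 2.20 and 2.16 FPKM in SCC2, 2.54, 2.43 and 2.51 FPKM in SCC1, and 2.70, 2.77 and 2.77 FPKM in LLC1. The lines did not overlap, with SCC2 lowest and LLC1 highest. The log2 change was -0.24 in SCC2 against LLC1 (limma adjusted p = 2.11e-04), -0.14 in SCC2 against SCC1 (limma adjusted p = 0.00701) and -0.10 in SCC1 against LLC1 (limma adjusted p = 0.0393). The call in SCC1 against LLC1 was lost when any 1 of the 6 libraries of these lines was left out (adjusted p 0.0560 to 0.113). It was kept on the worked-back fragments (limma-voom adjusted p = 7.48e-05). Zeb2 had 4.52, 4.49 and 4.26 FPKM in SCC2, 4.23, 4.47 and 4.35 FPKM in SCC1, and 4.58, 4.73 and 4.56 FPKM in LLC1. Both subclones lay below LLC1 without overlap, but no comparison of Zeb2 was called (limma adjusted p = 0.243 for SCC2 against LLC1, 0.116 for SCC1 against LLC1 and 0.664 for SCC2 against SCC1). Its antisense transcript Zeb2os overlaps it in the annotation, and the sources used here do not say whether counting used the strand. Annotated genes on the opposite strand overlap Krt8, Cdh2 and Zeb1 too, so the same limit holds for these genes.

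**Figure D3:**
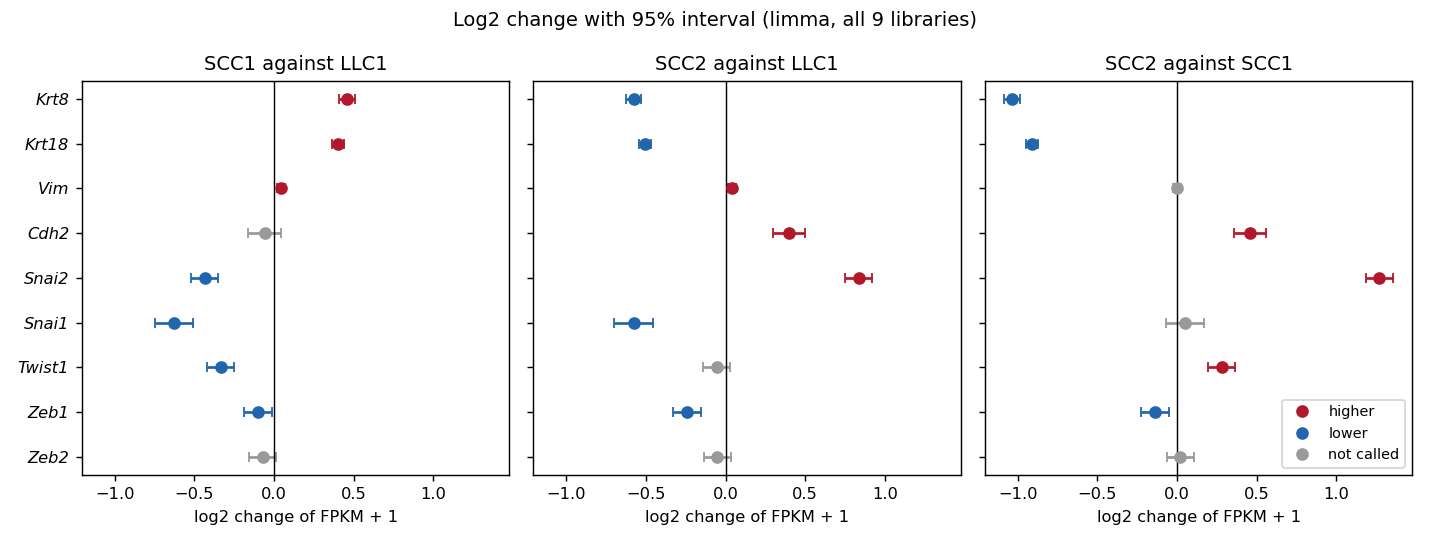
Log2 change of FPKM + 1 (horizontal axis) of the 9 tested genes with 95% intervals (bars) from limma, in 3 panels for SCC1 against LLC1, SCC2 against LLC1 and SCC2 against SCC1; red is higher, blue lower and grey not called at an adjusted p of 0.05. Krt8 reached -1.04 and Snai2 1.27 in SCC2 against SCC1.

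By level per gene length, the order was Vim, Krt18 and Krt8 in every line. Below these stood Twist1, Snai2, Snai1, Zeb2, Cdh2, Zeb1 and Cdh1 in SCC2, where the libraries of Twist1 lay above those of Snai2. In SCC1 and in LLC1 the order was Twist1, Snai2, Snai1, Zeb2, Zeb1, Cdh2 and Cdh1. The gene length implied by FPKM and fragments was close to that of the longest GENCODE transcript for most of the 10 genes, with a ratio of 0.923 for Krt8, 1.01 for Snai2 and 1.05 for Zeb2. For Zeb1 it was at least 33703 bases, 5.81 times the longest transcript of 5801 bases, and only 0.770% of genes reached such a ratio. For Cdh2 it was 2.06 times, and for Vim 0.627 times. With the longest transcript as gene length, Zeb1 would stand at 12.6 FPKM in SCC2, 14.5 in SCC1 and 16.0 in LLC1, above Zeb2 at 4.66, 4.59 and 4.88, and Cdh2 at 6.43, 4.12 and 4.37. Vim would stand at 2195, 2198 and 2135 FPKM in SCC2, SCC1 and LLC1, still the highest of the 10 genes, so that its level and its ratio to Krt8 also depend on the length used. The rank of Zeb1 and Cdh2 among these genes thus depends on the length used, whereas a change between lines does not, apart from the pseudocount. On fragments, 1307 to 1698 of Zeb1 per library, the log2 changes by limma-voom were -0.34 in SCC2 against LLC1, -0.14 in SCC1 against LLC1 and -0.20 in SCC2 against SCC1.

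Several of these genes lie on chromosomes whose tested genes had a median change away from 0. Krt8 (chr15:101996711-102004342) and Krt18 (chr15:102028216-102032026) are neighbours. The 431 tested genes of chromosome 15 had a median log2 change of -0.26 in SCC2 against LLC1, 0.16 in SCC1 against LLC1 and -0.44 in SCC2 against SCC1, the same directions as the keratins. With the median of each chromosome removed, Krt8 and Krt18 were still called in all 3 comparisons (limma adjusted p at most 3.60e-07), with smaller changes. Krt8 then had log2 changes of -0.32 in SCC2 against LLC1, 0.30 in SCC1 against LLC1 and -0.59 in SCC2 against SCC1, and Krt18 had -0.25, 0.24 and -0.47. The 330 tested genes of chromosome 16, which holds Snai2 (chr16:14705852-14709395), had medians of 0.21, -0.083 and 0.28 in the same order, again the directions of Snai2, and Snai2 remained called with these removed (log2 changes 0.62, -0.35 and 0.99, limma adjusted p at most 1.03e-05).

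The chromosome shared by Cdh2 and Zeb1 had 265 tested genes with medians of -0.22 in SCC2 against LLC1, 0.22 in SCC1 against LLC1 and -0.46 in SCC2 against SCC1. Cdh2 moved against these medians. With them removed, it was called higher in SCC2 and lower in SCC1 than in LLC1 (limma adjusted p = 4.34e-07 and 2.57e-04). Zeb1 was no longer called in SCC2 against LLC1 (limma adjusted p = 0.673), and turned to a log2 change of 0.32 in SCC2 against SCC1. In SCC1 against LLC1 Zeb1 stayed called lower, at a log2 change of -0.32 (limma adjusted p = 2.71e-05). On chromosome 2, with Vim (chr2:13574311-13582826), Zeb2 (chr2:44983512-45117442) and Snai1 (chr2:167538195-167542814), the medians over 856 genes were -0.044, 0.099 and -0.15. Relative to these, Vim was lower in SCC1 than in LLC1 by a log2 change of -0.057 and higher in SCC2 than in SCC1 by 0.15. Zeb2 became called, with log2 changes of -0.17 in SCC1 against LLC1 and 0.17 in SCC2 against SCC1 (limma adjusted p = 0.00238 and 0.00185), and so did Snai1 in SCC2 against SCC1 at 0.20 (limma adjusted p = 0.00608). The part of these chromosome-wide shifts in the change of each gene was not tested further.

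**Figure D4:**
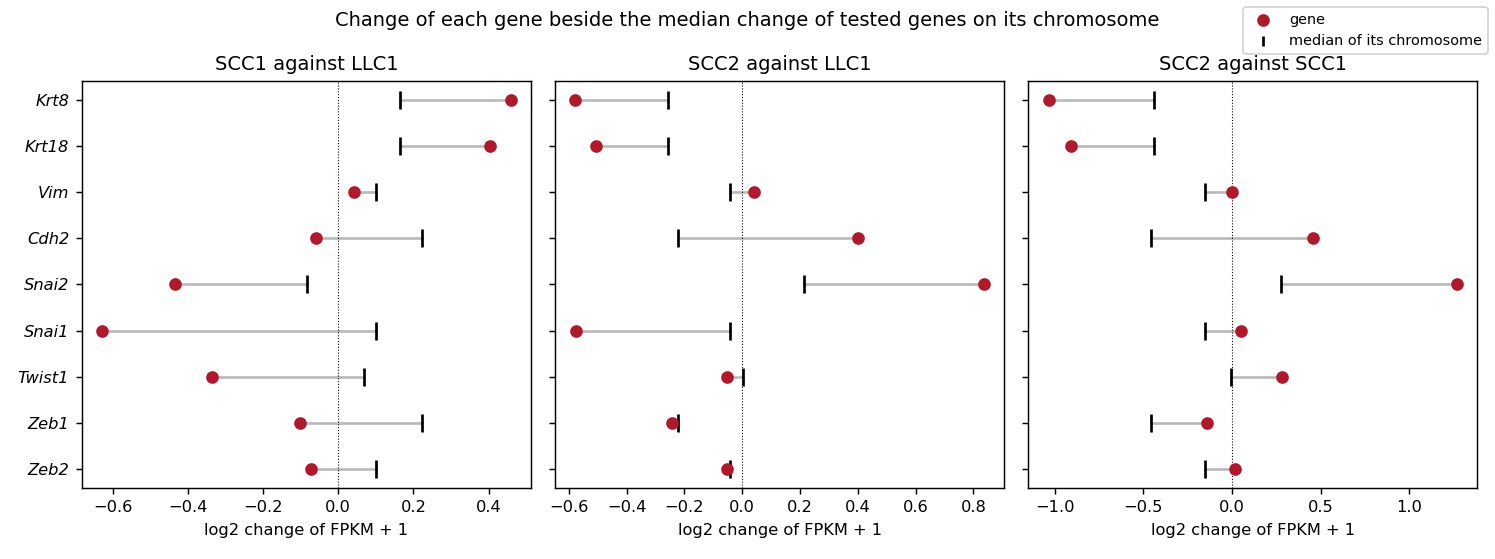
Log2 change of FPKM + 1 (horizontal axis) of each tested gene (red dot) and the median over all tested genes of its chromosome (black bar) in 3 panels for SCC1 against LLC1, SCC2 against LLC1 and SCC2 against SCC1. The keratins went beyond the median of chromosome 15, at -1.04 and -0.91 against -0.44 in SCC2 against SCC1, while Cdh2 lay on the other side of 0 from its chromosome.

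Next to the keratin pair, the 5 nearest genes of the table on the side of Krt8 were Krt78, Krt76, Krt83, Krt86 and Krt81, keratins of stratified epithelium and hair, and none averaged more than 0.0537 FPKM in any line. On the side of Krt18, Eif4b, a translation initiation factor, had a log2 change of -0.47 in SCC2 against LLC1 (limma adjusted p = 2.54e-10) and -0.036 in SCC1 against LLC1 (limma adjusted p = 0.0444). Tns2 and Igfbp6 fell in both subclones, by log2 changes of -0.39 and -0.49 in SCC2 and -0.61 and -0.58 in SCC1. Spryd3 had a log2 change of 0.067 in SCC2 against LLC1 (limma adjusted p = 0.134) and 0.11 in SCC1 against LLC1 (limma adjusted p = 0.0262). None of these tested neighbours rose in SCC1 by as much as Krt8 or Krt18. In SCC2 against LLC1, however, Eif4b and Igfbp6 fell nearly as far as Krt18, which had -0.51. In SCC2 against SCC1, Eif4b had a log2 change of -0.44 and Tns2 of 0.23, while Igfbp6 and Spryd3 were not called.

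The genes most like each filament gene were ranked over 5870 genes of at least 10 FPKM by the root-mean-square difference of log2 values centred over the 9 libraries. Nearest to Krt8 were Akr1b3, Ier3 and Socs6, at 0.0404, 0.0435 and 0.0480. Akr1b3, an aldo-keto reductase, averaged 64.3 FPKM in SCC2, 138 in SCC1 and 95.5 in LLC1. Krt18 was the fifth nearest to Krt8 at 0.0567, and Krt8 stood at place 12 from Krt18, whose nearest were Fam210a, Idh1 and Csnk1e at 0.0215, 0.0277 and 0.0286. Snai2 stood at place 5831 from Krt8, near the far end. Nearest to Vim were Vapa, Babam1 and Idh2, at 0.0154 to 0.0164.

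The other keratins were scarce. Of 19 listed, 8 had a row and 3 were tested, and all 3 were under 1 FPKM in at least 1 line, so that they passed the filter through the lines where they were high. Relative to LLC1, in SCC2 1 rose and 2 fell, in SCC1 against LLC1 1 rose, and in SCC2 against SCC1 1 rose and 2 fell, with median log2 changes of -0.48, -0.072 and -0.77. Over all genes tested, 67.6%, 70.1% and 76.3% were called in these comparisons. Krt13, a keratin of stratified mucosa, had 2.45, 2.62 and 2.06 FPKM in SCC2, at most 0.118 in SCC1 and at most 0.215 in LLC1. It was thus above 1 FPKM in SCC2 alone, the line with the lowest Krt8, which still averaged 75.3 FPKM there. Krt19, a partner of Krt8 in simple epithelia, averaged 0.333 ± 0.0610 FPKM in SCC2, 1.27 ± 0.0897 in SCC1 and 1.40 ± 0.143 in LLC1, and fell in SCC2 (log2 change -0.85 against LLC1, limma adjusted p = 2.35e-07). Krt80 averaged 0.871 FPKM in SCC2, 2.21 in SCC1 and 1.61 in LLC1, lower in SCC2 and higher in SCC1 than in LLC1, as Krt8 was.

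Of 22 other intermediate filament and linker genes, 13 were tested. In SCC2 against LLC1 2 rose and 9 fell, in SCC1 against LLC1 2 rose and 6 fell, and in SCC2 against SCC1 4 rose and 7 fell, with median log2 changes of -0.22, -0.13 and -0.17. Beside these counts, 67.6%, 70.1% and 76.3% of all genes tested were called in the same order. Prph, Nefl and Ppl were under 1 FPKM in some lines and passed the filter through the lines where they were high. Over the other 10 genes, 2 rose and 6 fell in SCC2 against LLC1, 1 rose and 4 fell in SCC1 against LLC1, and 4 rose and 5 fell in SCC2 against SCC1 (medians -0.15, -0.061 and -0.085). Nes, the intermediate filament protein nestin of progenitor cells, had 2.78 ± 0.0404 FPKM in SCC2, 6.16 ± 0.111 in SCC1 and 18.5 ± 0.300 in LLC1, and fell in both subclones (log2 change -2.36 in SCC2 and -1.44 in SCC1). Lmna, which encodes nuclear lamins A and C, was higher in SCC2 at 302 FPKM and lower in SCC1 at 202 FPKM, against 232 FPKM in LLC1. Ppl, the linker periplakin, had 0.101 FPKM in SCC2, 1.46 in SCC1 and 1.09 in LLC1, the order of the keratins.

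Of 32 epithelial junction and surface genes, 26 had a row and 8 were tested. In SCC2 against LLC1 3 of them rose and 5 fell, in SCC1 against LLC1 5 rose and 2 fell, and in SCC2 against SCC1 2 rose and 4 fell, with medians of -0.18, 0.17 and -0.24. Of all genes tested, 34.7% rose and 32.9% fell in SCC2 against LLC1, and 39.2% rose and 30.9% fell in SCC1 against LLC1. Between SCC2 and SCC1, 37.0% were higher and 39.4% lower in SCC2. Tjp1, the tight-junction scaffold ZO-1, averaged 47.8 FPKM in SCC2, 67.5 in SCC1 and 58.6 in LLC1, and the plakophilins Pkp2 and Pkp3, desmosomal linkers, followed the same order. Pkp2 had 15.7, 25.5 and 21.6 FPKM, and Pkp3 1.95, 3.95 and 2.77 FPKM, in SCC2, SCC1 and LLC1. Ocln, or occludin, ran the other way at 2.52, 1.36 and 1.90 FPKM. The desmosomal plaque gene Dsp and the claudin Cldn7 averaged at most 0.00481 and 0.0766 FPKM.

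Of 22 other cadherins and catenins, 9 were tested, with 3 higher and 6 lower in SCC2 and 1 higher and 6 lower in SCC1, each against LLC1, and 3 higher and 6 lower in SCC2 against SCC1. Their median log2 changes were -0.25, -0.27 and -0.21 in the same order, beside 0.0075, 0.033 and -0.0029 over all genes. The share of all tested genes that was called was 67.6%, 70.1% and 76.3% in these comparisons. Ctnnb1, or beta-catenin, which binds cadherin tails, averaged 156 FPKM in SCC2, 193 in SCC1 and 208 in LLC1. Ctnnal1, or alpha-catulin, moved as Snai2 did, with 57.9 to 59.0 FPKM in SCC2, 19.7 to 20.3 in SCC1 and 39.4 to 40.0 in LLC1. Jup, or plakoglobin, had 0.111 FPKM in SCC2, 0.289 in SCC1 and 1.43 in LLC1, and passed the filter through LLC1 only.

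Of 17 epithelial transcription and splicing factors, 4 were tested, and in SCC2 against LLC1 1 rose and 2 fell, in SCC1 against LLC1 2 rose and 1 fell, and in SCC2 against SCC1 3 fell and 1 was not called (median log2 changes -0.16, -0.036 and -0.17). Among all genes tested, 67.6%, 70.1% and 76.3% were called in the same order. Klf5, a Krüppel-like factor of epithelia, averaged 3.58 FPKM in SCC2, 4.21 in SCC1 and 2.96 in LLC1, and rose in both subclones. Klf4 averaged 0.575 FPKM in SCC2, 0.744 in SCC1 and 1.34 in LLC1, and passed the filter through LLC1 only. Without it, 1 rose and 1 fell in SCC2 against LLC1, 2 rose in SCC1 against LLC1 and 2 fell in SCC2 against SCC1. Foxa2, a forkhead factor of gut and lung epithelium, averaged 10.1, 12.2 and 11.2 FPKM. Grhl2 and Esrp1, which maintain epithelial transcription and splicing, averaged at most 0.122 and 0.0445 FPKM.

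Of 19 other EMT transcription factors, 14 were tested, with 4 higher and 9 lower in SCC2 and 4 higher and 5 lower in SCC1, each against LLC1, and 5 higher and 7 lower in SCC2 against SCC1. The medians of their log2 changes were -0.22, -0.020 and -0.11. For all genes tested, the share called was 67.6%, 70.1% and 76.3% in these comparisons. Klf8, counted among the genes that were higher in both subclones than in LLC1, averaged 1.22 FPKM in SCC2, 1.17 in SCC1 and 0.736 in LLC1, and passed the filter through the subclones. Sox9 and Sox4, HMG-box factors, moved in the order of the keratins. Sox9 averaged 7.42 ± 0.166 FPKM in SCC2, 23.2 ± 0.347 in SCC1 and 9.27 ± 0.234 in LLC1, and Sox4 averaged 5.53 ± 0.141, 20.8 ± 0.499 and 10.2 ± 0.339 FPKM. Both fell in SCC2 and rose in SCC1 (log2 changes -0.29 and 1.24 for Sox9, -0.78 and 0.96 for Sox4, limma adjusted p at most 6.93e-06). Fosl1 stood in the same order by a smaller margin, at 146 FPKM in SCC2, 188 in SCC1 and 160 in LLC1. Its log2 changes against LLC1 were -0.13 in SCC2 and 0.23 in SCC1, both called. Tcf12, a dimer partner of Twist factors, had 22.8 to 23.4 FPKM in SCC2, 20.7 to 21.1 in SCC1 and 29.1 to 29.9 in LLC1.

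All 22 partners and turnover factors of the EMT regulators were tested, with 9 higher and 7 lower in SCC2 and 8 higher and 5 lower in SCC1, each against LLC1, and 9 higher and 8 lower in SCC2 against SCC1. Their medians were near 0, at log2 changes of -0.00087, 0.0068 and -0.057. The counts stand beside 67.6%, 70.1% and 76.3% of all genes tested that were called in the same order. Hdac1, a histone deacetylase recruited by Snail, averaged 84.9 FPKM in SCC2, 64.5 in SCC1 and 93.4 in LLC1. Ezh2, the methyltransferase of the Polycomb complex, averaged 18.3 FPKM in SCC2, 24.9 in SCC1 and 18.2 in LLC1, and rose in SCC1 (log2 change 0.43 against LLC1, limma adjusted p = 3.85e-07), with a log2 change of 0.012 in SCC2 against LLC1 (limma adjusted p = 0.771). Pak1, a kinase of Snail, averaged 9.34 FPKM in SCC2, 4.85 in SCC1 and 7.46 in LLC1, the order of Snai2.

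Of 30 mesenchymal readout genes, 19 were tested. In SCC2 against LLC1 4 rose and 13 fell (median log2 change -0.32), and in SCC1 against LLC1 1 rose and 16 fell (median -0.42). In SCC2 against SCC1 12 rose and 6 fell (median 0.38, beside -0.0029 over all genes). Of all genes tested, 34.7% were higher and 32.9% lower in SCC2 against LLC1, 39.2% and 30.9% in SCC1 against LLC1, and 37.0% and 39.4% in SCC2 against SCC1. Acta2, Ncam1 and Tnc were under 1 FPKM in some lines and passed the filter through the lines where they were high. Over the other 16 genes, 4 rose and 10 fell in SCC2 against LLC1, 1 rose and 13 fell in SCC1 against LLC1, and 11 rose and 5 fell in SCC2 against SCC1 (medians -0.25, -0.33 and 0.38). Cd44, a hyaluronan receptor, averaged 102 FPKM in SCC2, 56.8 in SCC1 and 86.2 in LLC1. The integrin gene Itgb1 averaged 177, 110 and 148 FPKM, and Col3a1, which is also on the fibroblast marker list, 699, 257 and 575 FPKM. These 3 genes stood in the order of Snai2 and Cdh2. Sparc, a matrix glycoprotein, was lower in both subclones, at 122 FPKM in SCC2 and 69.2 in SCC1, against 183 in LLC1.

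**Figure D5:**
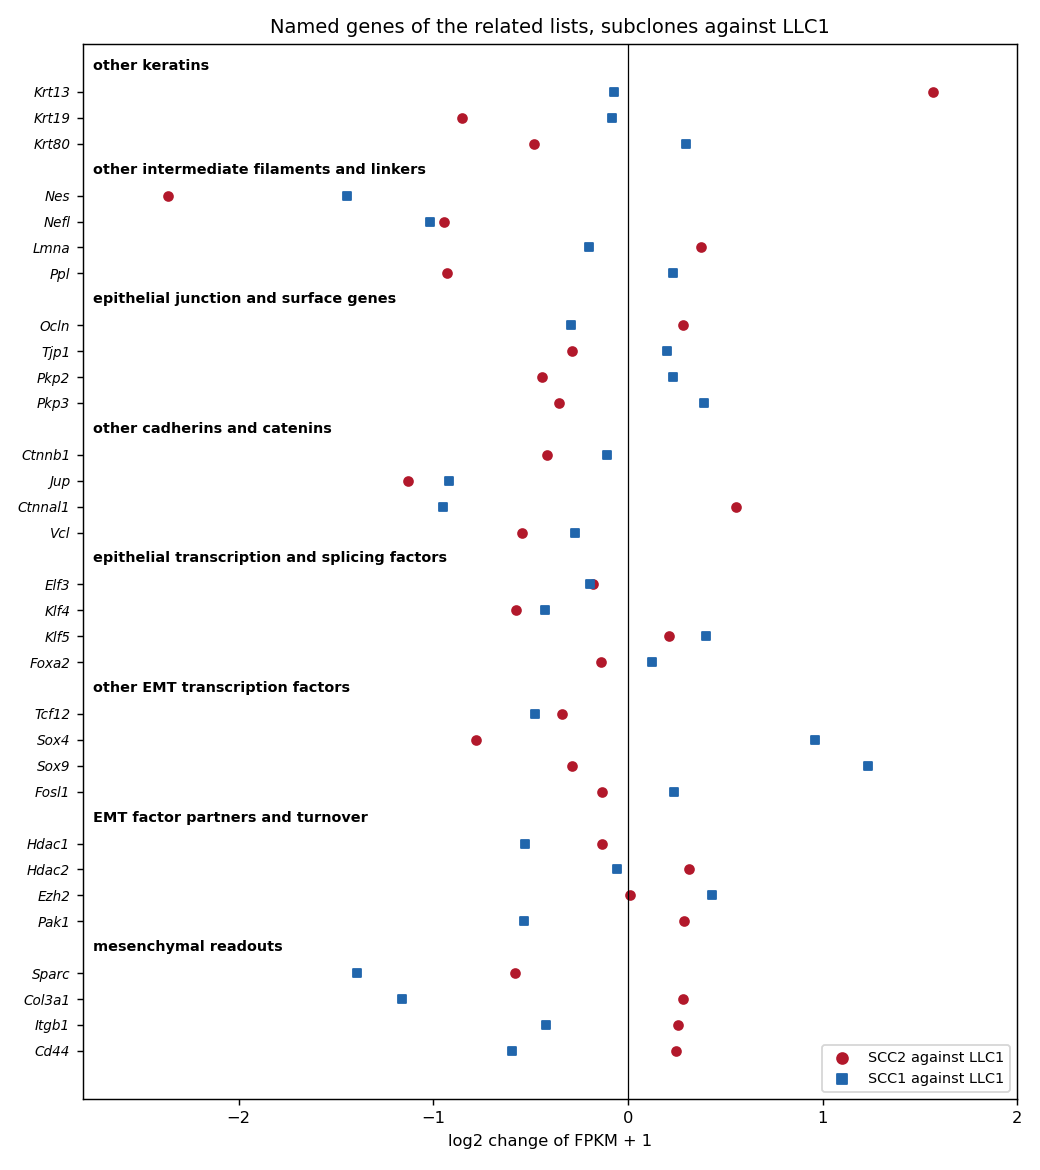
Log2 change of FPKM + 1 (horizontal axis) of up to 4 tested genes from each of 8 related lists, those with the smallest adjusted p, with red circles for SCC2 against LLC1 and blue squares for SCC1 against LLC1, which share the LLC1 libraries. Tjp1, Pkp2, Pkp3, Krt80, Ppl, Foxa2, Fosl1, Sox4 and Sox9 were called lower in SCC2 and higher in SCC1. Of these, Krt80 and Ppl were under 1 FPKM in SCC2 and passed the filter only through SCC1 and LLC1, where they were higher. Col3a1, Itgb1, Cd44, Ctnnal1, Lmna, Ocln and Pak1 were called higher in SCC2 and lower in SCC1.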

How the data were processed

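RNA sequencing of 3 libraries each of SCC2, SCC1 and LLC1 was deposited as FPKM per gene symbol. The authors computed FPKM with cufflinks after trimming with Trimmomatic and alignment with hisat2, per the series' design text. It also names HTSeq-count and DESeq for the authors' own tests, not used here. The sources used here give neither tool versions nor strand use. Builds GRCm38 and mm10 are named in the submitters' processing notes. The labels' protocols name an RNeasy extraction and a SMARTER kit, the design text a mirVana extraction and a stranded TruSeq kit.

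Groups came from sample titles. Within a gene, the FPKM of a library are whole multiples of a fixed amount. Fragments worked back as the smallest whole numbers were whole within 0.001 fragments for all 12270 genes above 0 in every library, and may miss a factor common to a gene. The chi-square per gene between replicate libraries ran from 1.19 to 1.70, more than counting alone gives, and none were merged.

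Genes of at least 1 FPKM in at least 3 of 9 libraries (10519) were tested on log2(FPKM + 1) with limma 3.58.1 in R 4.3.3 (trend and robust options, all 9 libraries, line as the only factor), two-sided, with Benjamini-Hochberg adjustment at 0.05. Ratios were tested by exact permutation. Other steps used Python 3.11.15 (pandas 2.3.3, numpy 2.4.6, matplotlib 3.10.9, scipy 1.17.1). The fit was also run on simulated data in which a small set of genes changed. Far more genes were called in the real data, so that run cannot show the error rate of the fit here.

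The 10 genes and the 8 related and 5 marker lists were chosen with earlier results of these data known. All 10 are named, with up to 4 tested genes of the smallest adjusted p from each related list and those listed near 0. A leukocyte marker was left out and is not reported here. The 3 genes most like each filament gene are also named. Positions and promoter windows came from RefSeq (GRCm38.p6), where 15665 of 15768 symbols matched, and transcript lengths from GENCODE on the same build. Alternatives were other pseudocounts, filters, scalings and fits, a replicate block, limma-voom on fragments, chromosome medians removed and each library left out.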

Additional observations from a re-analysis of the deposited data

Results flagged for a closer look

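Krt8, Krt18 and Snai2 changed in opposite directions in the subclones: against LLC1 each was called higher in one and lower in the other, and the test between the subclones was past the threshold as well. In SCC2 against SCC1 the log2 change was -1.04 for Krt8, -0.91 for Krt18 and 1.27 for Snai2 (limma adjusted p = 4.80e-12, 1.89e-12 and 7.61e-11). All 3 SCC2 libraries lay on the other side of LLC1 from all 3 SCC1 libraries for each of these genes. The medians of their chromosomes moved in the same directions, at -0.44 for chromosome 15 and 0.28 for chromosome 16.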

How the results depend on the processing

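Of 504 log2 changes of the 9 tested genes under alternatives, 481 kept their side of the threshold, 14 were no longer called, 4 became called and 5 turned their sign with a call in either fit. Other filters, limma without its trend and robust options, a replicate block and fits of only the lines compared left each log2 change itself unaltered. Leaving out a library from outside the comparison did so too. Under these alternatives only the call could change, and a kept direction there was fixed in advance. Of the 481, 478 kept their direction. The other 3, not called in either fit, were Vim and Snai1 in SCC2 against SCC1: Vim had 0.014 with median-of-ratios scaling and 0.0037 without SCC2 replicate 1, and Snai1 had -0.0063 without SCC1 replicate 3. Quantile normalization, which sets such an abundant gene by its rank, gave Vim -0.29 in SCC1 against LLC1 and 0.29 in SCC2 against SCC1. With chromosome medians removed, Vim had -0.057 and 0.15 in these comparisons and Zeb1 had 0.32 in SCC2 against SCC1, since the medians themselves moved. Krt8, Krt18, Snai2, Snai1 and Twist1 kept every call they had against LLC1 or between the subclones under all alternatives run, and so did Cdh2 where it was tested, but their sizes moved with chromosome medians removed. The keratins then had smaller changes, such as -0.59 for Krt8 and -0.47 for Krt18 in SCC2 against SCC1. Zeb1 in SCC1 against LLC1 also lost its call under quantile normalization and in a fit of these lines only (adjusted p = 0.286 and 0.0607). Among other alternatives, that call was kept with limma-voom on fragments, with chromosome medians removed and without limma's trend and robust options (adjusted p = 7.48e-05, 2.71e-05 and 0.00379). The number of these genes called ran from 5 to 7 in SCC2 against LLC1, 6 to 9 in SCC1 against LLC1 and 4 to 9 in SCC2 against SCC1. The lowest of the first and last came with a filter of 5 FPKM, which leaves Cdh2, Zeb1 and Zeb2 untested. Over all genes, the number called under the alternatives ran from 5774 to 7879, 6005 to 8157 and 6474 to 8849 in the same order of comparisons. The number of genes tested changed with the filter, so these counts are not shares of a fixed total.

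Libraries with the same number did not deviate together (correlations of deviations -0.0683 to 0.0890, and 4 of 18 best with their own number). No pairing by number was thus detected, but this cannot show whether same-numbered libraries were prepared together. With a replicate block, 7, 6 and 6 of the genes were called in SCC2 against LLC1, SCC1 against LLC1 and SCC2 against SCC1, and Zeb1 in SCC1 against LLC1 had an adjusted p of 0.0645. Of all 10519 genes tested, 7046 and 7306 were called with this block in SCC2 and in SCC1 against LLC1. In SCC2 against SCC1 76.3% of all were called without the block. Depth limits Cdh1 alone among the 10 genes, with at most 1 fragment per library.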
